A study of Homo sapiens with 12 samples.

Results

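A set of 10 long non-coding RNAs (lncRNAs) was followed in KG1a cells kept in normoxia or hypoxia. They were MIR210HG, NEAT1, MALAT1, GAS5, SNHG1, SNHG5, MEG3, MIR155HG, MIR17HG and LINC01336. They were taken by gene symbol, 10 of the 28395 genes in the table, and all 10 passed the filter on low values that 15057 genes passed. The list was chosen on measured values of these libraries: MIR210HG for its level in hypoxia, and LINC01336 for its difference between bright and dim cells in hypoxia. MIR210HG and LINC01336 are therefore described without a test in every contrast with hypoxic libraries. This also holds where they fall within a count.

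KG1a is a long-established leukaemia line whose cells resemble early myeloid progenitors. A pair of subsets of the line was compared, both positive for CD34, a surface molecule of blood progenitors. Dim and bright refer to the labelled surface staining for CD38, an ectoenzyme, and for CLL-1. CLL-1 is a myeloid lectin receptor encoded by CLEC12A. Both subsets were taken at normoxia and at 3% oxygen. This made 4 groups of 3 libraries, 12 in all, prepared from enriched mRNA: dim and bright cells in normoxia, and dim and bright cells in hypoxia. The duration of hypoxia is not stated in the labels. The cells are labelled WT, all 12 libraries carry the same batch label, and separate cultures are not mentioned for the replicates. P-values therefore reflect differences among these samples only, which may be technical.

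An lncRNA acts as RNA or serves as the precursor of smaller RNAs. MIR210HG, MIR155HG and MIR17HG are cut into microRNAs, short RNAs that pair with messenger RNAs through a seed at their 5′ end and lower their translation or stability. GAS5, SNHG1 and SNHG5 carry in their introns small nucleolar RNAs (snoRNAs), which guide the chemical modification of ribosomal RNA, and the spliced exons are turned over quickly. NEAT1 is the scaffold of nuclear bodies called paraspeckles, MALAT1 is an abundant RNA of nuclear speckles, and MEG3 is expressed from the maternal copy of an imprinted locus. The transcription factor HIF, which is stabilised when oxygen is low, is known to raise miR-210 in many cell types.

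The mature microRNAs are shown because they are the products for which 3 of the 10 lncRNAs are named. They are written 5′ to 3′ as RefSeq gives them (GRCh38.p14), with the seed, bases 2 to 8, in capitals. The first comes from MIR210HG, the second from MIR155HG and the other 6 from MIR17HG. miR-17-5p and miR-20a-5p shared one seed, miR-19a-3p and miR-19b-3p shared another, and the other 4 each had their own.
hsa-miR-210-3p: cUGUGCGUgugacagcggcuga
hsa-miR-155-5p: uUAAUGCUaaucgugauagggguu
hsa-miR-17-5p: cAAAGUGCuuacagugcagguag
hsa-miR-20a-5p: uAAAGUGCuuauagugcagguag
hsa-miR-18a-5p: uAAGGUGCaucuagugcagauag
hsa-miR-19a-3p: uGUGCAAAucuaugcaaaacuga
hsa-miR-19b-3p: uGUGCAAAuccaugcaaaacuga
hsa-miR-92a-3p: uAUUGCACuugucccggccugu

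The start region of MIR210HG is shown because MIR210HG was chosen for its level in hypoxia. The window is chr11:568408-568707 on the minus strand (GRCh38.p14, RefSeq), from 250 bases before the annotated start to 50 after it. Capitals mark the letters ACGTG and GCGTG, the core of the HIF binding motif, searched on both strands.
MIR210HG: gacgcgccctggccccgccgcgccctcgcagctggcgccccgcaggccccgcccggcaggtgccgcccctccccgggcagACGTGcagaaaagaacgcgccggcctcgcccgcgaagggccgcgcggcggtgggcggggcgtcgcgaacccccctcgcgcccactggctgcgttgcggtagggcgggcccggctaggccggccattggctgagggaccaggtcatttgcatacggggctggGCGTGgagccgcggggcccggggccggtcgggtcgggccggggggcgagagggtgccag
ACGTG lay 170 bases and GCGTG 9 bases before the start. Of 35116 promoter windows of the same length, 21.4% held ACGTG and 48.4% held either form. Among the 8 lncRNAs with a window in the table, 2 held ACGTG (MIR210HG and MIR155HG) and 5 held either form (also MALAT1, SNHG1 and MEG3). A lncRNA counted if any of its windows held the letters, and MALAT1 and MEG3 have several windows. The shares are of single windows, so the counts are not directly comparable with them. A match is a string of letters and not a measured binding site.

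The first 25 bases of the 3 snoRNA host transcripts are shown because hosts of this class are known to begin, like the mRNAs of the translation machinery, with a C and a run of pyrimidines, the 5′ terminal oligopyrimidine (TOP) motif. The sequences are from GENCODE 29 on GRCh38, and capitals mark the unbroken pyrimidine run at the start. Of the transcripts that begin with a C near the start of the counted model, the one with the longest run was taken. The leading C and the length of the run therefore rest on this choice.
GAS5: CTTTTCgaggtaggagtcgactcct
SNHG1: CTCatttttctactgctcgtggtaa
SNHG5: CTTTTacgtcggccttcgcgagcgt
The run was 6 bases long in GAS5, 5 in SNHG5 and 3 in SNHG1.

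Values are normalized read counts, which the authors scaled between libraries and rounded. The summed value was between 31828256 and 32560463 per library. CD38 transcripts followed the labels and those of CLL-1 did not. CD38 lay between 2 and 25 in dim and between 60 and 161 in bright libraries. CD34 was also higher in bright libraries, between 28691 and 32370, than in dim ones, between 17184 and 20882. CLEC12A was low throughout, between 9 and 40, and overlapped between dim and bright libraries. Markers of cells foreign to KG1a differed widely between replicates. The sum of 15 airway epithelium markers was 201 to 274 in normoxic dim, 288 to 7640 in normoxic bright, 1127 to 19147 in hypoxic dim and 77 to 1194 in hypoxic bright libraries, with between 1 and 6 of the 15 markers at 0 in a library. The sum of 12 skeletal muscle markers was 781 to 3751, 120 to 2544, 185 to 327 and 88 to 149 in the same order. The sum of 8 neutrophil granule markers reached 15157 in hypoxic dim replicate 1 and lay between 44 and 1759 in the other 11 libraries. The part of these markers in the results was not tested, and the calls of the 10 lncRNAs and of the gene lists are also given without the library highest in airway markers in each group.

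**Figure D1:**
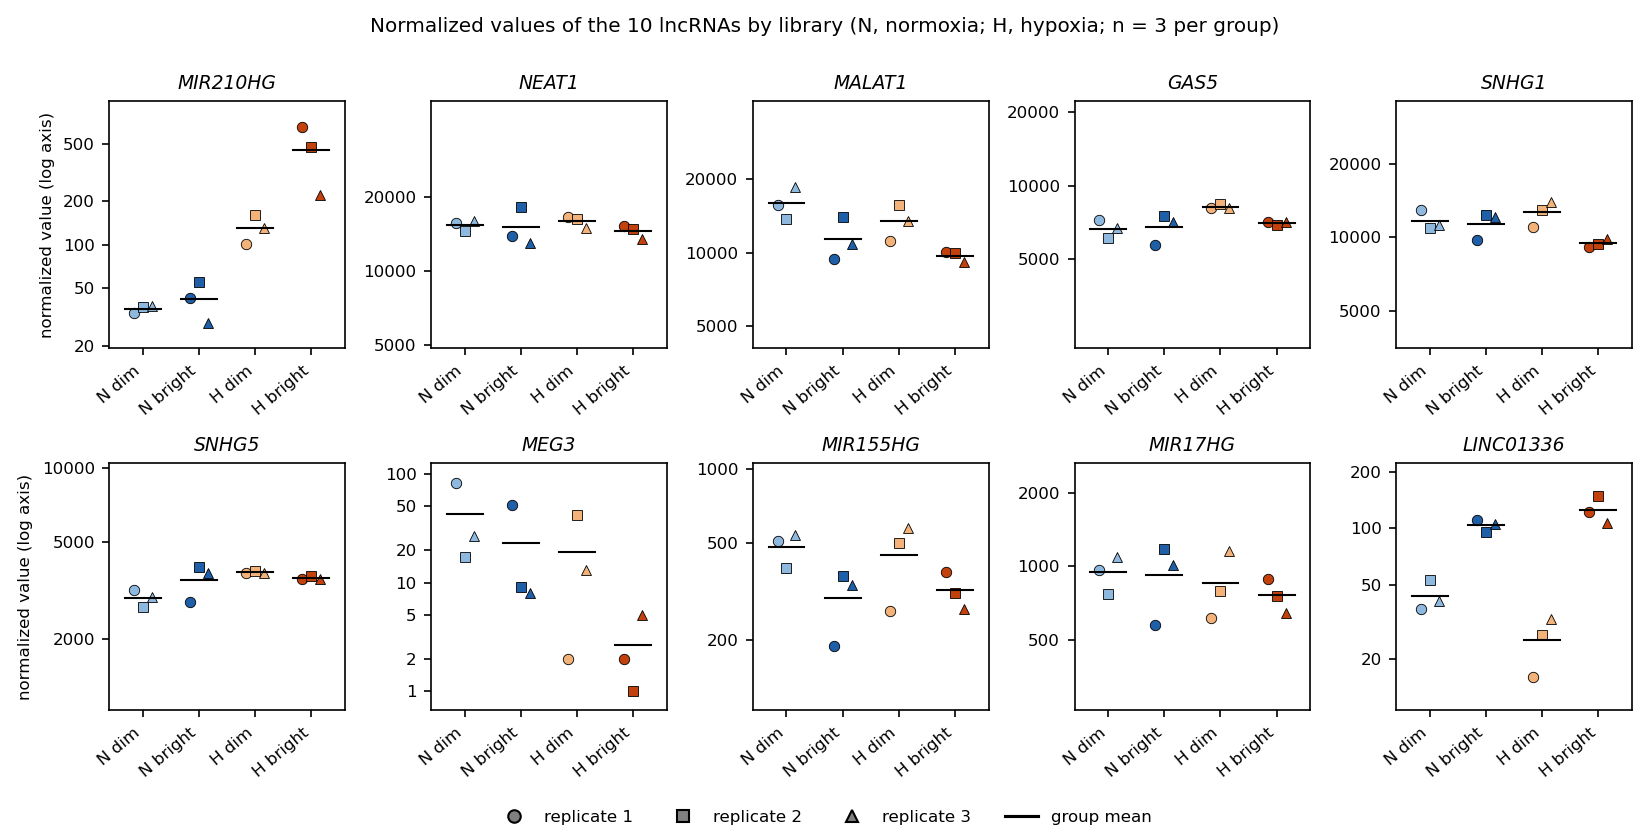
Normalized value of each lncRNA in every library, on a log axis of its own range; symbols are replicates 1, 2 and 3, lines are group means (n = 3), and blue and orange stand for normoxia (N) and hypoxia (H). MIR210HG runs from 29 to 652 and is highest in hypoxic bright cells, LINC01336 separates bright from dim cells, and NEAT1 stays between 13049 and 18297.

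Per kilobase of the counted model, the 3 snoRNA hosts stood highest. The mean normalized value per kilobase over 12 libraries was 11357 for GAS5, 10092 for SNHG1 and 6783 for SNHG5. NEAT1 followed with 4084 per kilobase and MALAT1 with 1449, both nuclear RNAs. MIR155HG had 262 per kilobase, MIR17HG 174, LINC01336 140, MIR210HG 71.4 and MEG3 2.06. This order spans from the 99.2 percentile of all tested genes for GAS5 to the 2.58 percentile for MEG3. MALAT1 is known to end without a poly(A) tail, and the labels do not say how mRNA was enriched. The effect of the enrichment on its level was not tested. The highest library exceeded the lowest 1.40-fold for NEAT1, 1.45-fold for SNHG5, 1.47-fold for GAS5 and 1.53-fold for SNHG1. The same ratio was 2.03 for MALAT1, 2.06 for MIR17HG, 3.03 for MIR155HG, 9.25 for LINC01336, 22.5 for MIR210HG and 83 for MEG3.

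Differences were tested on log2(value + 1) with limma over all 15057 genes, and a gene was called at a Benjamini-Hochberg adjusted p under 0.05. For hypoxia in dim cells 0 of the 10 lncRNAs were called with limma, 4 had an unadjusted p under 0.05, and in all genes 0.232% were called (0.199% higher and 0.0332% lower). For hypoxia in bright cells 1 of 10 lay past the threshold, MIR210HG, from which nothing is read because it was chosen for this contrast; the background was 0.837% (0.478% higher, 0.359% lower). For bright against dim in normoxia 1 of 10 was called, LINC01336, against 6.66% of all genes (2.88% higher, 3.79% lower). For bright against dim in hypoxia 4 of 10 lay past the threshold. MIR210HG and LINC01336 were higher in bright cells and had been chosen on these hypoxic values, which leaves MALAT1 and SNHG1, both lower, against 26.5% of all genes (12.9% higher, 13.6% lower). The hypoxia effect differed between the subsets in 0 of 10 with limma, with 3 at an unadjusted p under 0.05, against 2.36% of all genes (1.1% higher and 1.26% lower). The 3 libraries of one group all lay on one side of those of the other for 4 of 10 lncRNAs under hypoxia in dim cells, where 17.5% of all genes did so. This held for 2 of 10 under hypoxia in bright cells (22.3% of all genes), for 2 of 10 between subsets in normoxia (23.7%) and for 6 of 10 between subsets in hypoxia (41.1%).

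**Figure D2:**
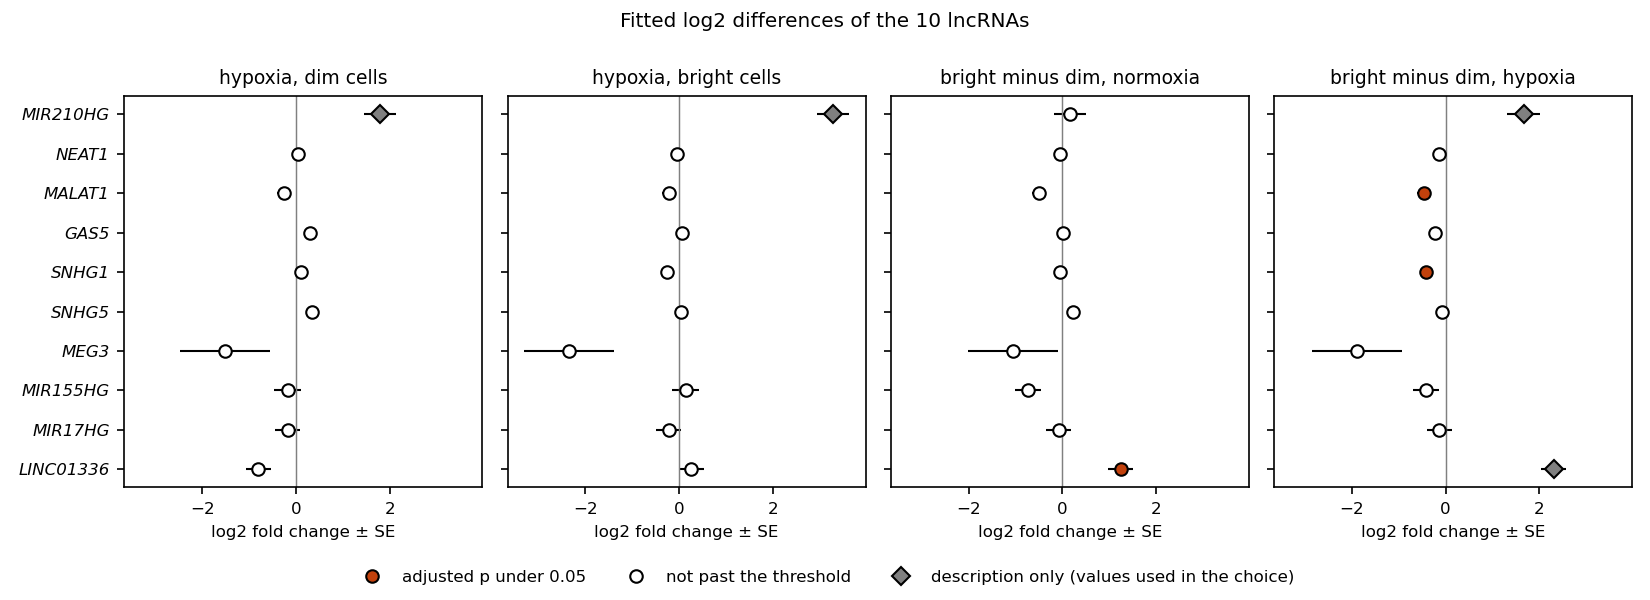
Fitted log2 fold change with its standard error for the 10 lncRNAs in 4 comparisons of 3 against 3 libraries; orange points passed an adjusted p of 0.05, white points did not, and grey diamonds rest on values used to choose the gene. The white points of LINC01336 under hypoxia rest on such values too. MIR210HG is at 1.79 and 3.29 under hypoxia, and the bars of MEG3 are the widest (standard error 0.96).

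MIR210HG, the host gene of miR-210 (chromosome 11, 565657 to 568457, minus strand, hg38; a model of 2 exons and 2303 bases), was higher in hypoxic than in normoxic libraries of both subsets, and highest in hypoxic bright cells. Its normalized values were 34, 37 and 38 in normoxic dim and 101, 161 and 130 in hypoxic dim cells. In normoxic bright cells they were 43, 55 and 29, and in hypoxic bright cells 652, 471 and 222. Every hypoxic library was above every normoxic one, and every hypoxic bright library was above every hypoxic dim one. The group means were 36.3 ± 2.08 (SD, n = 3), 42.3 ± 13.0, 131 ± 30.01 and 448 ± 216 for dim and bright cells in normoxia and then in hypoxia. The fitted log2 difference between hypoxia and normoxia was 1.79 ± 0.34 (SE) in dim and 3.29 ± 0.34 in bright cells, which is 3.47-fold and 9.76-fold, given as a description because MIR210HG was chosen on it. The difference between these effects was 1.49 ± 0.48 on the log2 scale, also a description.

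Between bright and dim cells in normoxia MIR210HG overlapped (log2 fold change 0.17 ± 0.34, limma adjusted p = 0.841). In hypoxia it was 3.17-fold higher in bright cells (log2 fold change 1.66 ± 0.34), a description that rests on the same hypoxic values. Replicate 3 was the lowest of the hypoxic bright libraries.

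The row of the MIR210 hairpin, which lies in the intron of MIR210HG, held few reads and was not tested. It had values of 0, 0 and 0 in normoxic dim, 0, 1 and 0 in normoxic bright, 2, 4 and 1 in hypoxic dim, and 5, 10 and 1 in hypoxic bright libraries. The row was above 0 in all 6 hypoxic libraries and in 1 of 6 normoxic ones. RASSF7, a gene of the RAS association domain family 1632 bases away on the other strand, had values of 689, 681 and 710 in normoxic dim, 712, 784 and 615 in normoxic bright, 840, 992 and 790 in hypoxic dim and 656, 678 and 685 in hypoxic bright libraries. RASSF7 was lower in bright than in dim cells in hypoxia (log2 fold change -0.37 ± 0.11, limma adjusted p = 0.0217), where 26.5% of all genes were called. It was not called for hypoxia in dim cells (0.33 ± 0.11, adjusted p = 0.165). LOC143666, the nearest tested gene on the other side, lay between 5 and 24 in all libraries and was called in no comparison. LMNTD2 overlaps RASSF7 on the opposite strand and was singled out after its values were seen. It stood lower in bright than in dim cells in hypoxia (log2 fold change -0.79 ± 0.26), a description without a test. Reads of the overlap cannot be told apart, since the labels give no strand setting for the counting.

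By the root mean square difference of centred log2 values over the 12 libraries, the 5 genes with the profile most like that of MIR210HG, of 12007 ranked, were PFKFB4 (0.754), LINC01088 (0.789), ANKRD37 (0.812), PIK3R6 (0.814) and FKBP9P1 (0.842), set against 1.46 for MIR210HG from its own mean. PFKFB4, an enzyme that sets the level of a glycolytic regulator, had values of 184, 226 and 229 in normoxic dim, 236, 237 and 159 in normoxic bright, 250, 363 and 265 in hypoxic dim, and 1204, 706 and 387 in hypoxic bright libraries. All 5 genes shared the order of the hypoxic bright replicates with MIR210HG, with replicate 1 highest and replicate 3 lowest. LINC01088, another lncRNA, stood 1.19 ± 0.21 higher in hypoxia in dim and 1.30 ± 0.21 higher in bright cells on the log2 scale. Its values were 196, 169 and 121 in normoxic dim, 250, 311 and 231 in normoxic bright, 304, 437 and 363 in hypoxic dim and 779, 694 and 500 in hypoxic bright libraries. These genes were picked for likeness over all 12 libraries, so their values are a description without a test.

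**Figure D3:**
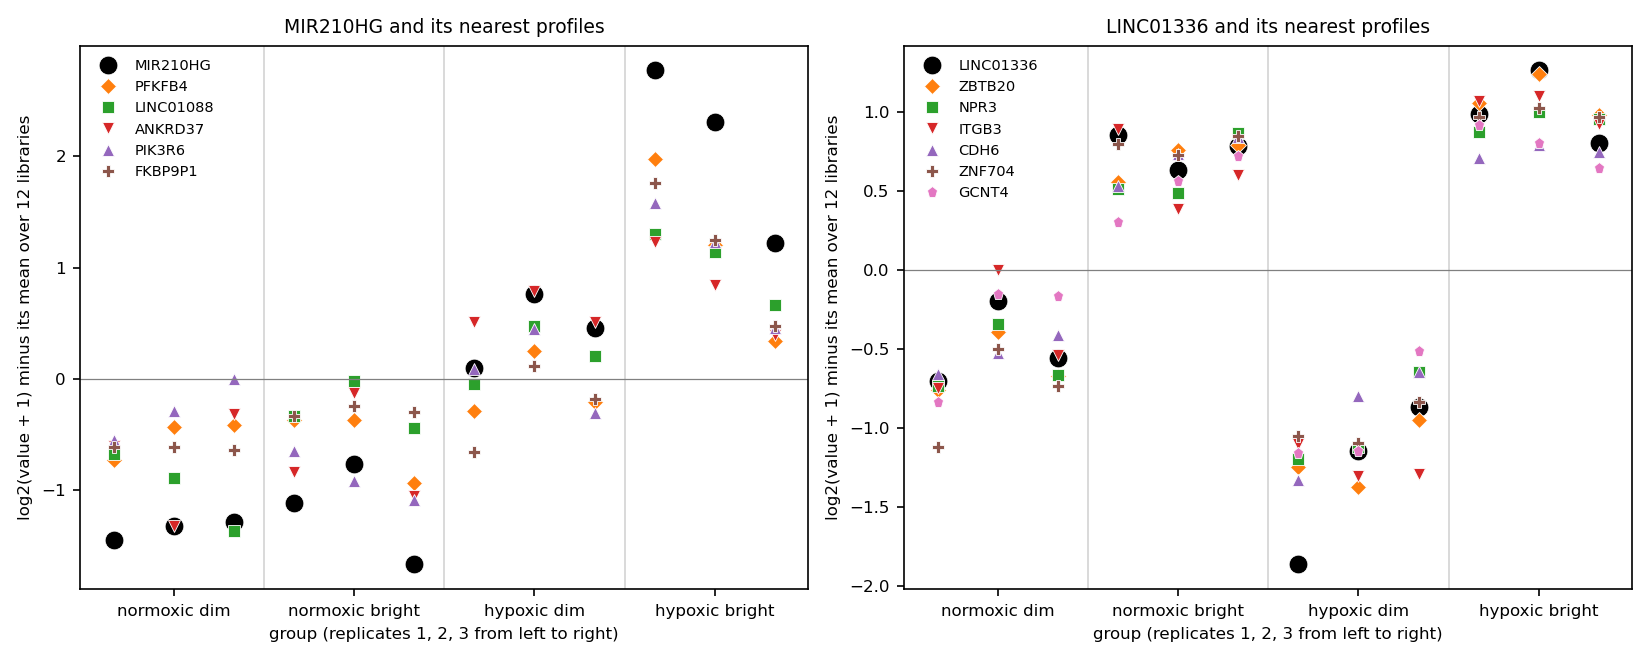
Log2(value + 1) of each gene minus its own mean over the 12 libraries, by group, with replicates 1, 2 and 3 from left to right; black circles are MIR210HG (left) or LINC01336 (right), coloured symbols are the 5 genes with the nearest profiles and, on the right, GCNT4. MIR210HG is above its nearest genes in all 3 hypoxic bright libraries, and LINC01336 and its nearest genes separate bright from dim cells.

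Among 15 HIF target genes, 8 rose under hypoxia in bright cells and 0 fell, and their median log2 fold change was 0.67, beside -0.00082 over all genes, of which 0.837% were called. DDIT4, an inhibitor of mTORC1 signalling, had the smallest p, with values of 1567, 1843 and 1606 in normoxic and 5980, 4699 and 2962 in hypoxic bright libraries (log2 fold change 1.39 ± 0.20, limma adjusted p = 0.00755). In dim cells 0 of 15 were called with limma, the median was 0.15, and 12 of 15 were above 0. The hypoxia effect was larger in bright than in dim cells for 3 of 15, with KDM3A, a histone demethylase, having the smallest p (difference 0.67 ± 0.14, limma adjusted p = 0.0335); 2.36% of all genes were called there. Between subsets in hypoxia 10 of 15 were higher in bright cells, where 12.9% of all genes were, led by the collagen prolyl hydroxylase P4HA1 (1.08 ± 0.18, adjusted p = 0.00116), and 2 were lower. The lower gene with the smallest p was CA9, a carbonic anhydrase, at 20, 247 and 84 in hypoxic dim and 4, 0 and 0 in hypoxic bright libraries (-5.48 ± 1.34, adjusted p = 0.00994). The sum of airway markers was 1127, 19147 and 6167 in these hypoxic dim libraries, the same order of replicates. It was 324, 1194 and 77 in the hypoxic bright libraries. The part of foreign cells in the CA9 values was not tested. Without the library highest in airway markers in each group, 0 of 15 were called for hypoxia in bright cells, with a median of 0.65, 3 were higher and 0 lower between subsets in hypoxia, and 0 differed in their hypoxia effect. Leaving out 1 library in turn gave between 1 and 11 calls for hypoxia in bright cells, and between 0 and 9 higher for the difference of the effects.

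Of 12 reported targets of miR-210, 0 were called with limma for hypoxia in either subset, with medians of 0.037 in dim and -0.086 in bright cells. FGFRL1, a receptor of the fibroblast growth factor family, was lower in bright than in dim cells in normoxia (log2 fold change -1.26 ± 0.32, limma adjusted p = 0.0329) and in hypoxia (-1.94 ± 0.32, adjusted p = 0.00127). Its values were 363, 207 and 151 in hypoxic dim and 84, 55 and 42 in hypoxic bright libraries. In normoxia 1 of 12 was called, beside 6.66% of all genes. In hypoxia 2 of 12 were lower in bright cells and 0 higher, beside 26.5% of all genes called. The median was -0.14, beside -0.031 over all genes, and with each library scaled to the same total 1 was higher. Without the libraries highest in airway markers 1 of 12 was lower in hypoxia and 0 in normoxia.

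MIR155HG, the host of miR-155, a microRNA of activated lymphoid and myeloid cells (chromosome 21, 25562145 to 25575168, plus strand; 1474 bases), was called in no comparison. Its values were 508, 395 and 540 in normoxic dim, 190, 366 and 338 in normoxic bright, 263, 500 and 576 in hypoxic dim and 380, 311 and 269 in hypoxic bright libraries. The normoxic groups did not overlap, with dim cells higher, whereas the hypoxic groups did. The log2 fold change of bright against dim was -0.73 ± 0.29 in normoxia (limma adjusted p = 0.178) and -0.42 ± 0.29 in hypoxia (adjusted p = 0.304). Without hypoxic dim replicate 1, the library with the highest granule markers, the hypoxic difference was -0.76 and passed (adjusted p = 0.0362). Hypoxia differed from normoxia by -0.17 ± 0.29 in dim and 0.14 ± 0.29 in bright cells. Its last exon holds the miR-155 hairpin, whose own row was at 0 in all 12 libraries.

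Of 7 reported targets of miR-155, 1 was higher and 3 were lower in bright than in dim cells in normoxia, and 2 were higher and 3 lower in hypoxia. Of all genes 6.66% were called in normoxia and 26.5% in hypoxia. SPI1, which encodes the myeloid transcription factor PU.1, rose in normoxic bright cells (log2 fold change 1.70 ± 0.35, limma adjusted p = 0.0102), from 367, 370 and 421 to 1217, 1290 and 1262. SOCS1, an inhibitor of cytokine signalling, was lower there (-1.58 ± 0.17, adjusted p = 8.14e-05). In hypoxia CEBPB, a myeloid transcription factor, was lower in bright cells (-0.83 ± 0.09, adjusted p = 6.11e-05) and JARID2, a partner of Polycomb complexes, higher (0.55 ± 0.07, adjusted p = 0.000221). For hypoxia in either subset 0 of 7 were called with limma. Without the libraries highest in airway markers the normoxic counts were 0 higher and 2 lower, and the hypoxic counts 2 and 2.

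MIR17HG, the host of the 6 microRNAs shown above (chromosome 13, 91347820 to 91354575, plus strand; 5018 bases), was called in no comparison. Its values were 964, 774 and 1098 in normoxic dim, 575, 1183 and 1018 in normoxic bright, 616, 794 and 1158 in hypoxic dim and 888, 757 and 643 in hypoxic bright libraries. All 4 groups overlapped. The log2 fold changes lay between -0.23 and -0.081 with a standard error of 0.26. The rows of its 6 hairpins, which lie in an exon, were at 0 in all libraries. Of the 5 MYC and E2F genes known to activate it, MYC itself was called in no comparison, MYCN was higher in bright cells in normoxia (0.59 ± 0.16, limma adjusted p = 0.0469) and E2F2 lower (-0.40 ± 0.11, adjusted p = 0.0412). With equal totals 0 were higher and 2 lower there, and with quantile normalization 1 was higher and 0 lower. In hypoxia E2F1 was lower in bright cells (-0.47 ± 0.08, adjusted p = 0.00151). Of all genes 6.66% were called between subsets in normoxia and 26.5% in hypoxia. With the airway-rich libraries left out, 0 of 5 were called in normoxia and 1 in hypoxia.

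Among 17 other microRNA host genes tested, MIR22HG was lower in bright than in dim cells in both oxygen conditions. Its values were 174, 116 and 152 in normoxic dim, 77, 79 and 52 in normoxic bright, 78, 118 and 117 in hypoxic dim and 37, 33 and 30 in hypoxic bright libraries. The log2 fold change was -1.08 ± 0.24 in normoxia (limma adjusted p = 0.0153) and -1.60 ± 0.24 in hypoxia (adjusted p = 0.00068). MIR99AHG was the 1 host that was higher in bright cells in hypoxia (1.00 ± 0.29, adjusted p = 0.0215), and 2 were lower, where 26.5% of all genes were called. In normoxia 1 of 17 was called, beside 6.66% of all genes. For hypoxia in either subset 0 of the 17 were called with limma. Without the libraries highest in airway markers 0 were called in normoxia and 1, lower, in hypoxia.

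SNHG1, a snoRNA host (chromosome 11, 62851988 to 62855888, minus strand; 1118 bases in 11 exons), was lower in bright than in dim cells in hypoxia. Its values were 11049, 12928 and 13916 in hypoxic dim and 9087, 9430 and 9857 in hypoxic bright libraries. They were 12882, 10920 and 11195 in normoxic dim and 9707, 12317 and 12107 in normoxic bright libraries. The hypoxic groups did not overlap and the normoxic groups did. The log2 fold change in hypoxia was -0.41 ± 0.11 (limma adjusted p = 0.0124). It missed the threshold without hypoxic bright replicate 1 (adjusted p = 0.052) and without the libraries highest in airway markers (-0.39, adjusted p = 0.118). The other log2 fold changes of SNHG1 were -0.041 ± 0.11 between subsets in normoxia, 0.11 ± 0.11 for hypoxia in dim and -0.26 ± 0.11 for hypoxia in bright cells (adjusted p = 0.266). The difference of the hypoxia effects was -0.37 ± 0.15 (adjusted p = 0.169).

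GAS5 (chromosome 1, 173863901 to 173867987, minus strand; 632 bases in 12 exons), named for its rise in growth arrest, was called in no comparison. Its values were 7227, 6111 and 6709 in normoxic dim, 5708, 7540 and 7090 in normoxic bright, 8095, 8402 and 8142 in hypoxic dim and 7119, 6887 and 7102 in hypoxic bright libraries. All 3 hypoxic dim libraries were above those of the other 9. The log2 fold change was 0.30 ± 0.09 for hypoxia in dim cells (limma adjusted p = 0.155) and -0.22 ± 0.09 for bright against dim in hypoxia (adjusted p = 0.0934), 2 comparisons that share the hypoxic dim libraries. With a fit of the compared groups alone the latter passed (adjusted p = 0.0285).

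SNHG5 (chromosome 6, 85677007 to 85678733, minus strand; 507 bases) was called in no comparison. Its values were 3180, 2712 and 2967 in normoxic dim, 2841, 3938 and 3711 in normoxic bright, 3709, 3796 and 3742 in hypoxic dim and 3520, 3615 and 3537 in hypoxic bright libraries. Hypoxic dim lay above normoxic dim in every library (log2 fold change 0.35 ± 0.10, limma adjusted p = 0.145). Normoxic bright replicate 1 stood below the other bright libraries. Without it the difference of bright against dim in normoxia was 0.38 and passed (adjusted p = 0.00957), as did the difference of the hypoxia effects (-0.45, adjusted p = 0.0351).

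Another 20 snoRNA host lncRNAs were tested. In hypoxia 6 of 20 were lower in bright cells and 0 higher, with a median log2 fold change of -0.18 beside -0.031 over all genes, of which 26.5% were called and 13.6% lower. In normoxia 1 of 20 was called, SNHG19, which was higher in bright cells (0.39 ± 0.10, limma adjusted p = 0.0308), and 0 without the libraries highest in airway markers. In hypoxia SNHG16 had the smallest p, with values of 3570, 3964 and 3854 in hypoxic dim and 2773, 2704 and 2847 in hypoxic bright libraries (-0.45 ± 0.08, limma adjusted p = 0.002). The other 5, named after their values were seen, were SNHG7, SNHG9, SNHG12, SNHG17 and SNHG32, with log2 fold changes between -0.40 and -0.27. SNHG16 was also the 1 host whose hypoxia effect differed between the subsets (-0.50 ± 0.12, adjusted p = 0.0427), a call that was lost without the airway-rich libraries, and between 0 and 4 hosts were called with 1 library left out. For hypoxia in dim cells 0 of 20 were called with limma, with a median of 0.16 and 15 of 20 above 0. For hypoxia in bright cells 0 of 20 were called, with a median of -0.094. Without the libraries highest in airway markers 1 of 20 was lower in hypoxic bright cells, with a median of -0.16. Leaving out 1 library in turn gave 3 to 7 lower. With quantile normalization 1 was higher and 5 were lower.

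**Figure D4:**
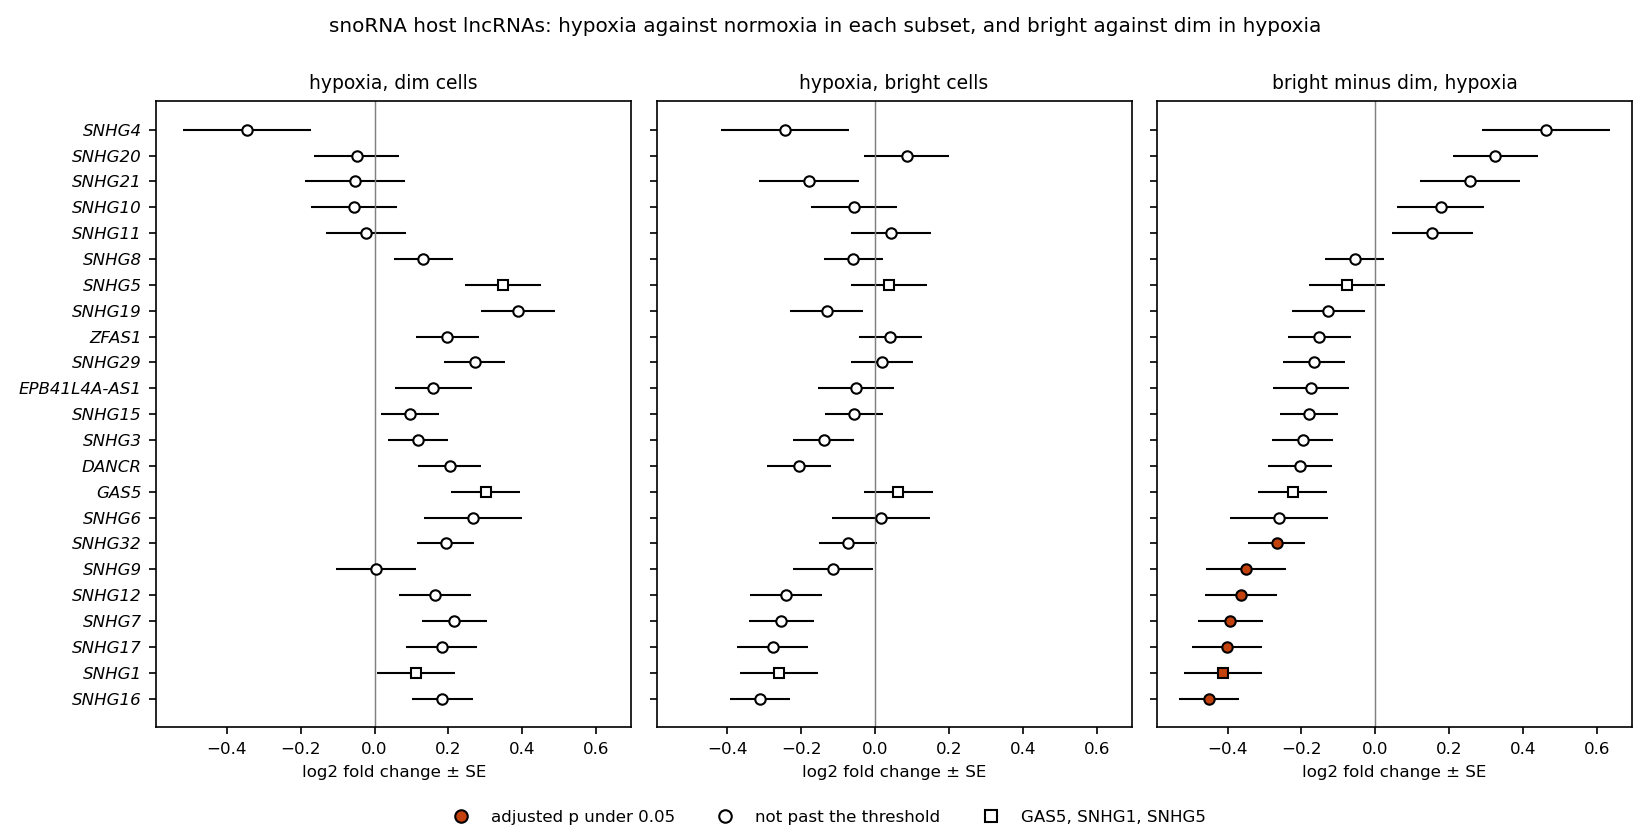
Log2 fold change with its standard error for GAS5, SNHG1 and SNHG5 (squares) and 20 other snoRNA host lncRNAs (circles), ordered by the right panel, which shares its libraries with the other panels; orange points passed an adjusted p of 0.05. On the right SNHG16 is lowest at -0.45, followed by SNHG1 at -0.41, and no point passed in the left and middle panels.

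Of 16 mRNAs that carry a TOP motif, most of them for translation factors, 3 were higher and 2 lower in bright cells in hypoxia, with a median of -0.05, where 26.5% of all genes were called. EIF4B, a translation initiation factor, had the smallest p of the higher genes (0.33 ± 0.07, limma adjusted p = 0.0043) and NPM1, a nucleolar chaperone, of the lower ones (-0.43 ± 0.09, adjusted p = 0.00596). In each of the other 3 pairwise comparisons 0 of 16 were called with limma. The medians there were 0.088 for hypoxia in dim cells, -0.002 for hypoxia in bright cells and 0.036 between subsets in normoxia. With the airway-rich libraries left out, 0 of 16 were called in hypoxia.

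Rows of snoRNAs inside the host introns were counted separately from the spliced hosts. The libraries were prepared from enriched mRNA, and whether these reads come from snoRNAs or from unspliced hosts was not tested. GAS5 holds 10 such rows, all tested, with values from 3 for SNORD75 to 333 for SNORD80. Between subsets in hypoxia SNORD75 stood higher in bright cells, at 15, 18 and 19 against 3, 6 and 4 in dim cells (log2 fold change 1.81 ± 0.47). It reached the filter value of 10 only in bright libraries, so this is a description without a test. SNORD81 was lower, at 14, 19 and 9 against 34, 38 and 51 (-1.52 ± 0.40, limma adjusted p = 0.0146). Of all genes 26.5% were called in this comparison. SNORD75 and SNORD81 lay in opposite directions, the former at low values, and GAS5 itself was at -0.22. SNHG1 holds 8 rows, of which SNORD22 was lower in bright cells in hypoxia (-0.49 ± 0.11, adjusted p = 0.00748), at 739, 888 and 863 against 1052, 1312 and 1148. The median of the 8 rows was -0.032 in that comparison, beside -0.41 for the host. SNORD50B, the tested row of SNHG5, was called in no comparison.

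SLC3A2, the heavy chain of amino acid transporters, starts 124 bases from SNHG1 on the other strand. It had values of 12482, 12476 and 11317 in hypoxic dim and 8409, 8727 and 10470 in hypoxic bright libraries, and was lower in bright cells (log2 fold change -0.40 ± 0.08, limma adjusted p = 0.0036). WDR74, a ribosome assembly factor on the other side, was at -0.25 ± 0.08 (limma adjusted p = 0.0316). In this comparison of the subsets in hypoxia 26.5% of all genes were called, 13.6% of them as lower out of all genes tested. ZBTB37, which starts 95 bases from GAS5 on the other strand, was not called (1.47 ± 0.52, adjusted p = 0.0536). SYNCRIP, an RNA-binding protein next to SNHG5, was at 0.02 ± 0.09. GAS5-AS1, on the opposite strand of GAS5 and named after its values were seen, lay between 1 and 9 in all libraries and was not tested.

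NEAT1 (chromosome 11, 65422798 to 65426532, plus strand; 3735 bases) was the steadiest of the 10. Its values were 15700, 14641 and 15976 in normoxic dim, 13919, 18297 and 13049 in normoxic bright, 16567, 16350 and 14931 in hypoxic dim and 15226, 14817 and 13577 in hypoxic bright libraries. All groups overlapped, and the log2 fold changes lay between -0.13 and 0.046 with a standard error of 0.11. The counted model covers the short form of NEAT1. The long form that builds paraspeckles extends beyond it and was not measured on its own. Of 16 paraspeckle protein genes, 0 were called with limma for hypoxia in either subset or between subsets in normoxia. In hypoxia 1 was higher in bright cells, the chromatin remodeller SMARCA4 (0.26 ± 0.09, limma adjusted p = 0.0466), and 2 were lower, where 26.5% of all genes were called. The median was -0.027. With the airway-rich libraries left out, 0 of 16 were called.

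MALAT1 (chromosome 11, 65497762 to 65506469, plus strand; 8708 bases in 1 exon) was lower in bright than in dim cells in hypoxia. Its values were 15716, 13730 and 18495 in normoxic dim, 9388, 13932 and 10809 in normoxic bright, 11129, 15612 and 13474 in hypoxic dim and 10017, 9949 and 9124 in hypoxic bright libraries. The hypoxic groups did not overlap, and in normoxia only bright replicate 2 reached the dim libraries. The log2 fold change of bright against dim was -0.45 ± 0.15 in hypoxia (limma adjusted p = 0.0381) and -0.50 ± 0.15 in normoxia (adjusted p = 0.0668). The hypoxic call is close to the threshold and was lost in 9 of 17 alternatives. It was lost without a filter on low values (adjusted p = 0.0621), without the mean trend (0.0835), and at a threshold of 0.01. It was also lost without hypoxic dim replicate 2 (adjusted p = 0.157) or 3 (0.0686), without hypoxic bright replicate 1 (0.0803), 2 (0.0859) or 3 (0.111), and without the libraries highest in airway markers (0.248). In normoxia the difference passed without bright replicate 2 (-0.65, adjusted p = 0.0208). Hypoxia itself gave -0.26 ± 0.15 in dim and -0.21 ± 0.15 in bright cells, neither called. LOC101927789, the nearest tested gene on the side of lower coordinates, was not called between the subsets in hypoxia (0.45 ± 0.26).

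MEG3 (chromosome 14, 100826108 to 100861026, plus strand; 10570 bases) was near the limit of detection and was called in no comparison. Its values were 83, 17 and 27 in normoxic dim, 52, 9 and 8 in normoxic bright, 2, 42 and 13 in hypoxic dim and 2, 1 and 5 in hypoxic bright libraries. The standard error of its log2 fold changes was 0.96. The highest libraries were replicate 1 of both normoxic groups, which also had the highest muscle sums of their groups (3751 and 2544), and hypoxic dim replicate 2, which had the highest airway sum (19147) and the highest muscle sum of its group (327). The part of these markers in the MEG3 values was not tested, and fewer cells with MEG3 cannot be told apart from less MEG3 per cell in bulk RNA. Without hypoxic dim replicate 1 the difference of bright against dim in hypoxia passed (-2.89, limma adjusted p = 0.0267). H19, another imprinted lncRNA, singled out after its values were seen, had 10804, 3753 and 3686 in normoxic dim, 6397, 240 and 212 in normoxic bright, 1086, 1517 and 1002 in hypoxic dim and 224, 386 and 432 in hypoxic bright libraries. It too was highest in replicate 1 of both normoxic groups and was called in no comparison. Of the 6 other genes of the MEG3 locus listed, 0 passed the filter on low values.

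LINC01336 (chromosome 5, 75047719 to 75052643, minus strand; 534 bases in 2 exons) was higher in bright than in dim cells in both oxygen conditions. Its values were 37, 53 and 41 in normoxic dim, 111, 95 and 106 in normoxic bright, 16, 27 and 33 in hypoxic dim and 122, 148 and 107 in hypoxic bright libraries. No bright library reached down to a dim one. The difference in normoxia, which was not used to choose it, was 1.25 ± 0.27 on the log2 scale or 2.37-fold (limma adjusted p = 0.0116). It missed the threshold without normoxic dim replicate 1 (1.14, adjusted p = 0.0553) and without the libraries highest in airway markers (1.20, adjusted p = 0.115). In hypoxia the difference was 2.31 ± 0.27 or 4.96-fold, a description. Hypoxia against normoxia gave -0.80 ± 0.27 in dim cells, where the groups did not overlap, and 0.26 ± 0.27 in bright cells. Both effects rest on hypoxic values used to choose LINC01336 and are descriptions. The difference between these effects was 1.07 ± 0.38, also a description.

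The RefSeq table (GRCh38.p14) lists LINC01336 as a synonym of GCNT4, a glycosyltransferase gene of O-glycan branching, whereas GENCODE 29 keeps it as a separate lncRNA. In the deposited table the rows are separate, 16820 bases apart on the same strand. The RefSeq start of GCNT4 (75052558) lies inside exon block 2 of the LINC01336 row (75052429 to 75052643). GCNT4 had values of 204, 328 and 326 in normoxic dim, 451, 540 and 603 in normoxic bright, 163, 164 and 255 in hypoxic dim and 692, 637 and 572 in hypoxic bright libraries. In normoxia GCNT4 was higher in bright cells (0.91 ± 0.21, limma adjusted p = 0.0167), where 6.66% of all genes were called. Between subsets in hypoxia it stood at 1.73 ± 0.21. This is a description, because the LINC01336 row, possibly part of the same gene, was chosen on this contrast. For hypoxia against normoxia GCNT4 was at -0.56 ± 0.21 in dim and 0.26 ± 0.21 in bright cells, neither called. GCNT4 ranked 9 of 12007 genes in likeness to LINC01336. ANKRD31, the neighbour on the other side, was not called (0.61 ± 0.24 in hypoxia, adjusted p = 0.0737). Whether the LINC01336 row counts an RNA of its own or part of a longer GCNT4 transcript was not tested.

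The 5 genes with the profile most like that of LINC01336 were ZBTB20 (0.231), NPR3 (0.255), ITGB3 (0.284), CDH6 (0.290) and ZNF704 (0.297), set against 0.973 for LINC01336 from its own mean. They were picked for this likeness over the same 12 libraries, so their values are a description without a test. ZBTB20, a zinc finger transcription factor, had values of 575, 744 and 614 in normoxic dim, 1437, 1659 and 1689 in normoxic bright, 411, 376 and 505 in hypoxic dim and 2036, 2308 and 1928 in hypoxic bright libraries. Its log2 fold change of bright against dim was 1.31 ± 0.13 in normoxia and 2.28 ± 0.13 in hypoxia. ITGB3, an integrin subunit of platelets and megakaryocytes, and CDH6, a cadherin, stood at 2.26 ± 0.17 and 1.67 ± 0.15 in hypoxia.

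Against the whole class, RefSeq names 4108 rows of the table as lncRNA, of which 999 were tested. For hypoxia in bright cells 5 of 999 were higher and 1 lower, 0.601% of the class beside 0.837% of all genes. For hypoxia in dim cells 3 were higher and 1 lower, 0.4% of the class beside 0.232% of all genes. Between subsets in normoxia 16 were higher and 15 lower in bright cells, 3.1% of the class beside 6.66% of all genes. In hypoxia 124 were higher and 51 lower, 17.5% beside 26.5%. The median log2 fold change of the class in hypoxia was 0.18 in favour of bright cells, beside -0.031 over all genes. Among 20 other named lncRNAs, MIAT was lower in bright cells in normoxia (-2.09 ± 0.23, limma adjusted p = 0.000108). In hypoxia 4 of these 20 were higher and 4 lower in bright cells. FAM30A, a lncRNA of immature blood cells, had the smallest p of the higher ones (0.78 ± 0.12, adjusted p = 0.000706), and PVT1, the neighbour of MYC, of the lower ones (-0.48 ± 0.10, adjusted p = 0.00425). With the airway-rich libraries left out, 1 of 20 was higher and 0 lower in hypoxia.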

How the data were processed

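RNA-seq was made from 12 libraries of KG1a cells. Reads were trimmed with Trimmomatic 0.39 and aligned with STAR 2.4.2a to hg38, per the submitters' processing notes. The counting tool, annotation release and strand setting are not given here. The deposited score values are read counts that the authors had divided by a size factor per library and rounded; this was read from the values, so true depth is unknown and a count model was not used. Genes reaching 10 in 3 or more libraries were kept (15057 of 28395), and log2(value + 1) was fitted with limma 3.58.1 (R 4.3.3, mean trend, 4 group means, 8 residual degrees of freedom). The pseudocount lowers the fold changes of low genes. All p-values are two-sided and adjusted over all genes tested by the Benjamini-Hochberg method, and the fit was tested on simulated data. Members and lists were chosen with earlier results of these data known. From each list, and per comparison and direction, the gene with the smallest p is named, together with nearest neighbours and the 5 nearest profiles; other names are marked, and some genes the rule names are not reported here. RefSeq matched 97.71% of gene IDs. Alternatives covered scaling, pseudocount, filter, trend, groups in the fit, replicate block, left-out libraries and threshold.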

Additional observations from a re-analysis of the deposited data

How the results depend on the processing

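Of the log2 fold changes of the 10 lncRNAs under the alternatives, 842 kept their direction and side of the threshold, 37 turned direction, 11 newly passed and 15 no longer passed. Fits with libraries left out rest on fewer samples; for the other shifts the cause was not tested. The counts of genes called, 35 (hypoxia, dim cells), 126 (hypoxia, bright cells), 1003 (subsets, normoxia), 3994 (subsets, hypoxia) and 355 for the difference of the hypoxia effects, moved more than 1.5-fold in 49 of 91 alternatives. For hypoxia in dim cells the count was 12 with a pseudocount of 0.1, 22 with 10, 12 with a mean of at least 50, 9 without the mean trend, 13 with the compared groups alone, 1 at 0.01, and 0 without the libraries highest in airway markers (1883 at an unadjusted p under 0.05). For hypoxia in bright cells it was 68 with quantile normalization, 60 with a pseudocount of 10, 70 without a filter, 31 without the trend, 226 with the compared groups alone, 3 without the airway-rich libraries and 20 at 0.01. For bright against dim it was 356 without the airway-rich libraries and 477 at 0.01 in normoxia, and 1135 and 1901 in hypoxia. For the difference of the hypoxia effects it was 162 with a pseudocount of 10, 164 with a mean of at least 50, 43 without the trend, 4 without the airway-rich libraries and 30 at 0.01. Leaving out 1 library in turn gave 0 (without hypoxic dim replicate 2, 1684 at an unadjusted p under 0.05) to 637 (without hypoxic dim replicate 3), 7 to 120, 611 to 999, 2289 to 4347 and 51 to 1520 in the same order.

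Same-numbered libraries did not all deviate together: 7 of 18 pairs had a correlation above 0.1, from -0.229 to 0.448. Pairs with different numbers ranged from -0.584 to 0.408. The 3 same-numbered pairs of normoxic dim and bright libraries were all positive, at 0.448, 0.060 and 0.177. With the replicate block the counts were 60, 162, 917, 3782 and 329, and among contrasts not used to choose a lncRNA it changed no call of the 10.

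The small differences turned. Without the airway-rich libraries NEAT1 was at 0.093 for hypoxia in bright cells and 0.053 for the difference of the hypoxia effects, MIR210HG at -0.084 and GAS5 at -0.0094 between subsets in normoxia, and MIR17HG at 0.11 for the difference of effects. GAS5 was at -0.0024 with equal totals and -0.0037 with quantile normalization, and MEG3 at 0.26 for the difference of effects with quantile normalization. With 1 library left out, hypoxia in dim cells ranged from -0.39 to 0.17 for MIR155HG and from -0.42 to 0.035 for MIR17HG. Hypoxia in bright cells ranged from -0.14 to 0.11 for NEAT1, -0.056 to 0.15 for GAS5, -0.10 to 0.13 for SNHG5 and -0.15 to 0.32 for MIR155HG. Bright against dim in normoxia ranged from -0.038 to 0.41 for MIR210HG, -0.20 to 0.049 for NEAT1, -0.068 to 0.13 for GAS5, -0.10 to 0.070 for SNHG1 and -0.29 to 0.23 for MIR17HG, and in hypoxia from -0.34 to 0.11 for MIR17HG. The difference of effects ranged from -0.18 to 0.061 for NEAT1, -0.085 to 0.20 for MALAT1, -1.84 to 0.077 for MEG3, -0.026 to 0.54 for MIR155HG and -0.36 to 0.19 for MIR17HG. Count models planned for raw counts were not run, because the values are normalized.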
